A study of Mus musculus with 4 samples.

Results

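Gene expression in mouse brain tissue without detected RNA of the collagen gene Col1a1 was compared between 7 and 21 days post injury (dpi). Visium arrays were used, on which each spot captures the polyA RNA of a small region holding several cells. The cortex of wild-type (WT) mice had been injured by photothrombosis (PT), in which light activates a dye in the vessels and closes them. One capture area held slices of 2 mice at 7 dpi and a second area held slices of 2 mice at 21 dpi, and these 4 slices are compared here. A further area held 2 slices at 21 dpi from mice of genotype Cthrc1(creER); R26(DTA), called deleter, in which tamoxifen-activated Cre, driven by the Cthrc1 gene of injury-activated fibroblasts, is designed to switch on a toxin, and the study set these mice aside because no deletion was detected in them. The last area held 1 WT slice at rest and 1 at 2 dpi, which the labels do not tell apart. All slices were 10 µm thick and were permeabilized for 12 min, no agent beyond the injury is named in the labels of the WT areas, and the ages of these mice are not in the labels.

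Members were chosen by their measured values. A spot was kept when it held at least 1000 unique molecular identifiers (UMIs, each standing for 1 captured RNA molecule) and no UMI of Col1a1, the gene of the main collagen of scar tissue. This kept 1531 of the 4095 tissue spots of the 4 slices, out of 9340 tissue spots in the series. The kept spots numbered 412 and 228 in the 7 dpi slices and 609 and 282 in the 21 dpi slices, or 42.1% and 24.1%, and 45.3% and 34.1%, of the tissue spots there. The Col1a1 limit did nearly all of the selecting, since only 1, 0, 33 and 1 spots of the 4 slices lay under 1000 UMIs. The spots nearest outside it, with exactly 1 Col1a1 UMI, numbered 266 and 143 at 7 dpi and 287 and 130 at 21 dpi. At the UMI limit, the shallowest kept spot of a slice held 1107 to 2886 UMIs and the deepest one dropped held 389 to 740. A tissue spot with at least 5 Col1a1 UMIs per 10000 is called fibrotic below, and there were 112 and 392 of these at 7 dpi and 170 and 203 at 21 dpi.

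After a cortical injury, microglia, the resident macrophages of the brain, and macrophages from the blood take up the debris of dead cells and myelin. Phagocytes loaded with lipid are known to raise lysosomal proteases, lipid-storage and lipid-export proteins and a set of surface receptors around TREM2, while interferons induce a separate programme of antiviral and antigen-presentation genes in many cell types. Astrocytes around a lesion raise intermediate filament proteins, and plasma cells, which secrete antibodies, appear late where lymphocytes persist.

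UMIs were summed over the kept spots of each slice, and all levels below are CPM, the UMIs of a gene in those spots divided by all their UMIs and multiplied by 1000000, with slice 1 (the left piece on its array) given before slice 2. The sums were 7105761 and 3904275 UMIs at 7 dpi and 7573482 and 3302209 at 21 dpi. Median UMIs per kept spot were 16166.5 and 17361.5 at 7 dpi and 12069 and 11064 at 21 dpi. Xist, the RNA of the inactive X chromosome, stood at 83.9 and 59.2 in the 7 dpi slices and at 0.132 and 0 in the 21 dpi slices, whereas Ddx3y on the Y chromosome had no UMI at 7 dpi and stood at 57.6 and 62.7 at 21 dpi. Time, sex and capture area therefore coincide in the WT slices and cannot be told apart. The slices also differed in the brain regions they covered: 7 striatal markers summed to 254 and 106 at 7 dpi and 585 and 302 at 21 dpi, 8 choroid plexus markers to 4278 and 241, and 7991 and 371, and 6 white matter markers to 11582 and 10594, and 9667 and 6557. The 8 thalamus markers went the other way from striatum, at 392 and 132 at 7 dpi and 107 and 76.9 at 21 dpi, and were highest in 7 dpi slice 1. Cortical glutamatergic neuron markers summed to 1079 and 1298 at 7 dpi and 1407 and 1862 at 21 dpi, so cortex was present in all 4 slices. None of the genes of the 10 lists of region and cell type markers passed the test described below, and their part in the results was not tested. In such sums, fewer cells of a type and less RNA per cell cannot be told apart.

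**Figure D1:**
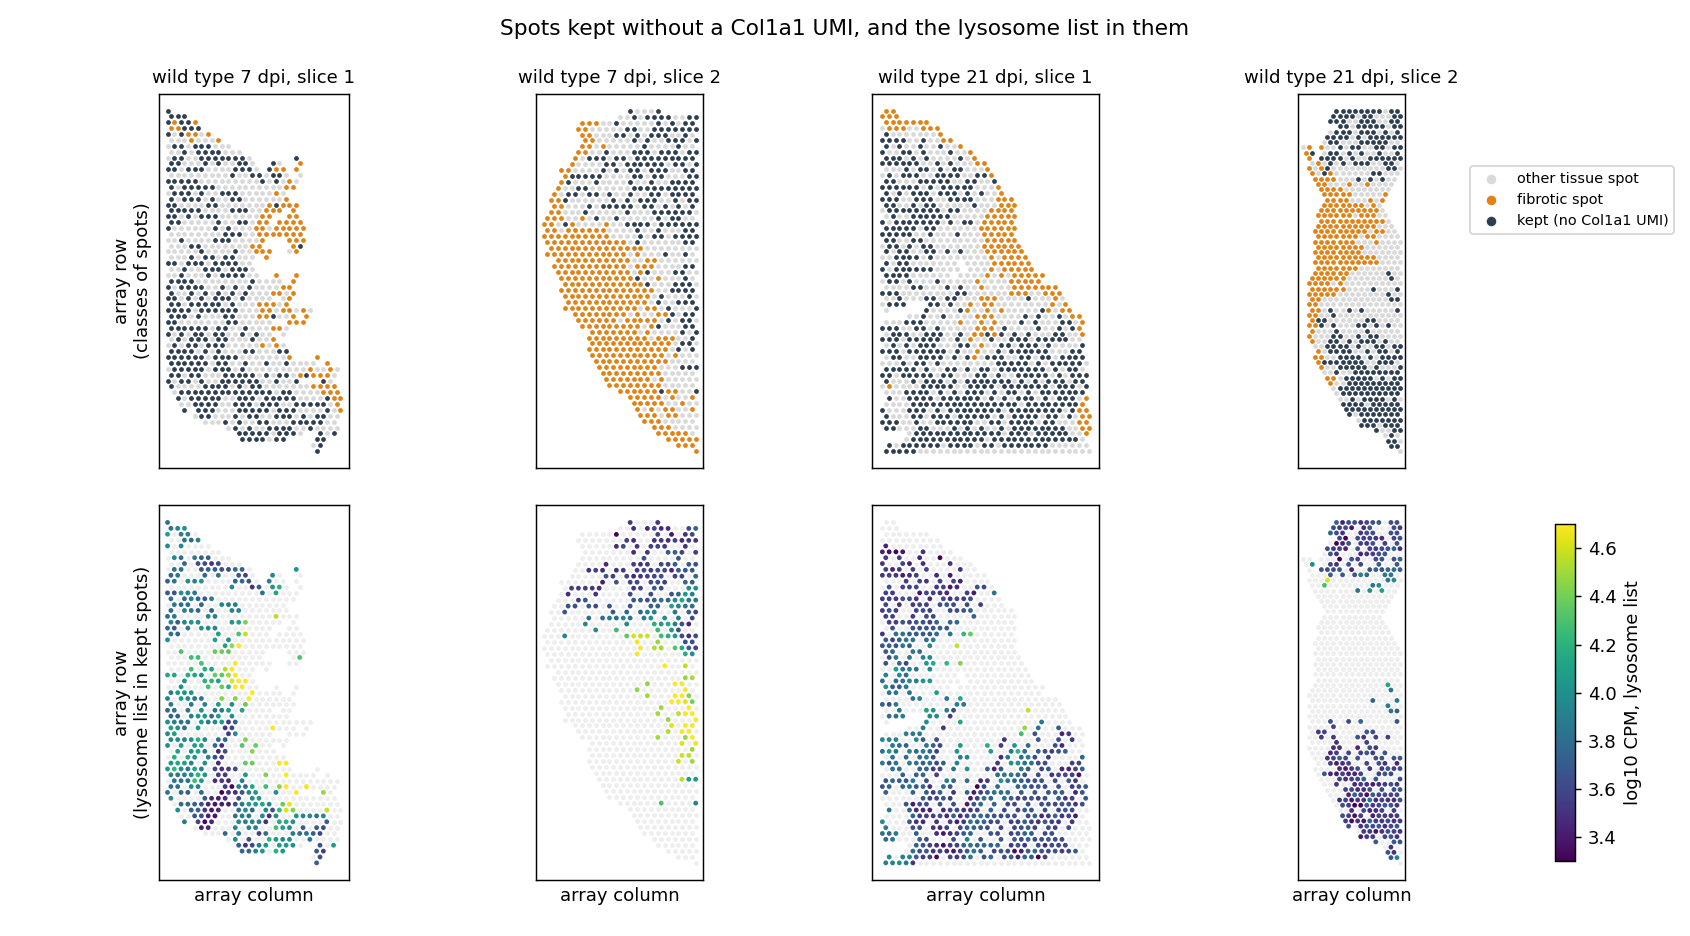
The upper row shows the tissue spots of the 4 WT slices at their array row and column, with kept spots (no Col1a1 UMI) in dark blue, fibrotic spots in orange and other tissue spots in grey. The lower row colours the kept spots by the summed level of 24 lysosomal genes (log10 of CPM, from dark to yellow), and the yellow spots lie beside the fibrotic tissue of the 7 dpi slices.

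More genes were higher at 7 than at 21 dpi than the reverse. In edgeR's quasi-likelihood test with Benjamini-Hochberg adjustment over all 13904 genes tested, 313 genes (2.25%) were higher at 7 dpi and 13 (0.0935%) were higher at 21 dpi at an adjusted p under 0.05, and below a gene is said to have risen or passed the test only on this basis. Of the 313, 290 differed by a log2 fold change of 1 or more and 38 by 3 or more, and all 313 had both 7 dpi slices above both 21 dpi slices, as did 25.2% of all genes tested. Beside Xist, genes with the largest log2 fold changes included Mmp12, Pclaf, Msr1, Spp1, Cd36, Aurkb, Htr2b, Pbk, C5ar1, Plin2, Hmox1 and Nusap1, of which Mmp12, Msr1, Spp1, Cd36, C5ar1, Plin2 and Hmox1 are known from macrophages and Pclaf, Aurkb, Pbk and Nusap1 from dividing cells.

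Mmp12, a macrophage elastase on chromosome 9 (7344381 to 7369499, GRCm38), stood at 69.4 and 215 in the 7 dpi slices and 5.55 and 3.63 in the 21 dpi slices, a log2 fold change of 4.87 ± 0.63 (SE, adjusted p = 0.0165, edgeR). Spp1 (chromosome 5, 104435118 to 104441050), which encodes the secreted phosphoprotein osteopontin, had the most UMIs of these genes at 7 dpi, at 949.7 and 1291 against 77.8 and 56.6 (log2 fold change 4.06 ± 0.25, adjusted p = 0.00441, edgeR). The 7 dpi slices lay close to each other for Spp1, while for Mmp12 slice 2 lay well above slice 1. Msr1, a scavenger receptor for modified lipoproteins, stood at 19.0 and 27.9 against 1.72 and 0.303 (log2 fold change 4.21 ± 0.49, adjusted p = 0.0132, edgeR). Adam8, a membrane protease of myeloid cells, stood at 19.8 and 36.9 against 2.11 and 2.42, Lilrb4a, an inhibitory receptor of myeloid cells, at 29.6 and 48.4 against 3.57 and 3.63, and Capg, an actin-capping protein of macrophages, at 47.4 and 62.2 against 5.94 and 3.94. These 3 rose by log2 fold changes of 3.65, 3.43 and 3.40 (adjusted p = 0.0126, 0.0105 and 0.00906, edgeR). In the area holding a resting and a 2 dpi slice, Spp1 stood at 461 in the left slice and 8.27 in the right one, and Mmp12 at 29.7 and 0.0631, so the 21 dpi levels lay between the levels of those slices.

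The count of genes higher at 7 dpi depended on the Col1a1 limit, on spots near fibrotic spots and on 3 of the 4 slices. With all spots whatever their Col1a1, 2 genes were higher at 7 dpi and 4 at 21 dpi. With less than 1 Col1a1 UMI per 10000 the counts were 167 and 9. With spots more than 5 steps (rows of neighbouring spots) from any fibrotic spot, 1 gene was higher at 7 dpi and 2 at 21 dpi. With spots holding at least 5 UMIs of the cortical neuron gene Slc17a7 per 10000, the counts were 2 and 2. Of the 313 genes, 281 and 260 could be fitted there, with median log2 fold changes of 1.03 and 1.04 against 1.91. All of these log2 fold changes were above 0. The 313 genes were chosen on sums that include these spots, so their sign there was partly fixed in advance. Of the kept spots, 33.0% and 44.7% lay within 5 steps at 7 dpi and 34.8% and 34.8% at 21 dpi. Without 7 dpi slice 1, 7 dpi slice 2, 21 dpi slice 1 or 21 dpi slice 2 the counts higher at 7 dpi were 44, 114, 308 and 205, and the counts higher at 21 dpi 2, 25, 74 and 16.

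**Figure D2:**
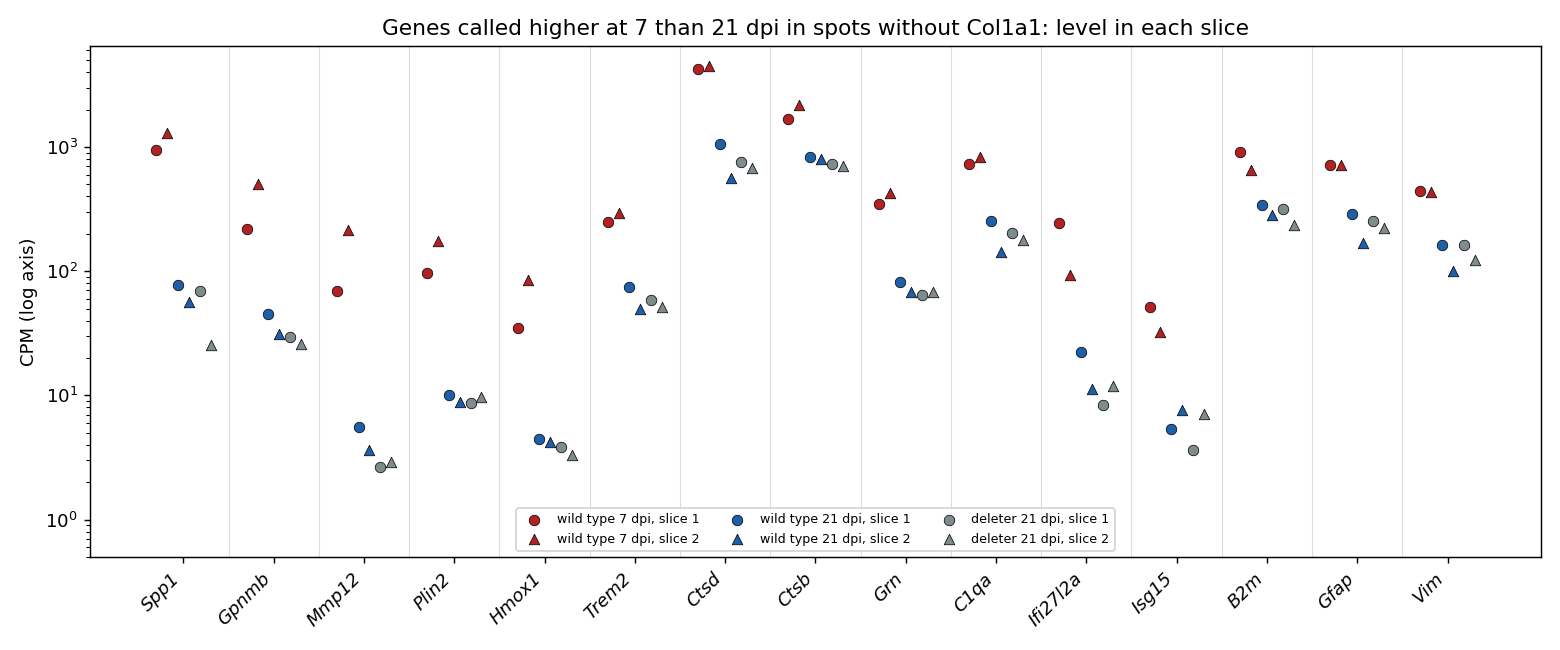
Level of 15 genes called higher at 7 than 21 dpi, in CPM on a log axis, with 1 point per slice: red for WT 7 dpi, blue for WT 21 dpi and grey for deleter 21 dpi, circles for slice 1 and triangles for slice 2. In each gene both red points lie above all blue and grey points.

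Microglial genes were in part higher at 7 than at 21 dpi. Of 15 genes of homeostatic microglia, those known to mark resting microglia, 8 rose, none fell, and the other 7 had log2 fold changes above 0 without passing. The list's median log2 fold change was 1.28, beside a median of 0.00 over all genes tested. For list counts on all kept spots of the 4 slices, here and below, the background is the main test. There 2.25% of all genes tested were called higher at 7 dpi and 0.0935% at 21 dpi. With so few calls at 21 dpi, that none fell in a list says little about that list. Counts with a slice left out have other backgrounds. Without 7 dpi slice 1 or 2, 44 of 13660 and 114 of 14725 genes were called higher at 7 dpi. Without 21 dpi slice 1 or 2, 308 of 13773 and 205 of 14740 were. Leaving out 7 dpi slice 1 or 2 gave 2 and 4 calls, and leaving out 21 dpi slice 1 or 2 gave 8 and 5. The Fc-receptor-like gene Fcrls, a marker that separates microglia from blood monocytes, stood at 190.3 and 222 against 40.9 and 26.3 and rose most of the list (log2 fold change 2.59 ± 0.23, adjusted p = 0.00906, edgeR). Receptors of the list rose less. Csf1r, the receptor for the survival factor of microglia, stood at 169 and 176 against 86.6 and 65.7, and Cx3cr1, the fractalkine receptor, at 73.9 and 79.4 against 36.0 and 25.4, with log2 fold changes of 1.17 and 1.30 (adjusted p = 0.0214 and 0.0227, edgeR). The purinergic receptor P2ry12, known to fall when microglia are activated, stood at 57.7 and 48.9 against 34.5 and 43.9 and did not pass (adjusted p = 0.262, edgeR).

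Of 19 genes of disease-associated microglia and scar-associated macrophages, 11 rose and none fell, with a list median of 1.87, and Clec7a was not analysed here. Leaving out each slice in the same order gave 6, 8, 14 and 9 calls. The lipid-sensing receptor Trem2 stood at 248 and 296 at 7 dpi and 74.7 and 49.7 at 21 dpi, and Tyrobp, the adaptor that carries its signal, at 528 and 564 and 157 and 98.4. Receptor and adaptor rose by nearly the same amount, log2 fold changes of 2.12 ± 0.22 and 2.09 ± 0.23 (adjusted p = 0.0119 and 0.0123, edgeR). Gpnmb, a glycoprotein of lipid-laden phagocytes, stood at 219.5 and 505 against 44.9 and 31.2 (log2 fold change 3.24 ± 0.42, adjusted p = 0.0165, edgeR), and Lgals3, the galectin that binds damaged lysosomes, at 143 and 271 against 33.9 and 18.8 (2.93 ± 0.39, adjusted p = 0.0170). For both, 7 dpi slice 2 lay well above slice 1. Igf1, a growth factor made by phagocytes, stood at 53.9 and 86.3 against 12.1 and 11.2 (log2 fold change 2.57, adjusted p = 0.0122, edgeR). Apoe, the lipid carrier made by astrocytes and activated microglia, had the most UMIs of the list, at 5844 and 6199 against 4275 and 2812, and did not pass the test (log2 fold change 0.77 ± 0.24, adjusted p = 0.193, edgeR). Lyz2, the macrophage lysozyme, at 330.4 and 490.5 against 171 and 101, just missed it (adjusted p = 0.0514, edgeR).

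Blood-derived and border macrophage genes were sparse. Only 7 of 15 had enough UMIs to be tested, and the monocyte genes Ccr2, Ly6c2, Plac8 and Chil3 and the border macrophage genes Lyve1, Cd163, Cd209f and Clec10a were not among them. Ms4a6c (22.5 and 20.7 against 3.04 and 2.73), Ms4a7 (15.6 and 17.7 against 4.09 and 2.73), the platelet factor gene Pf4 (16.3 and 21.0 against 4.49 and 3.03) and the fibronectin gene Fn1 (123 and 143 against 38.0 and 31.2) rose. The other 3 genes tested did not pass, and 2 of them had log2 fold changes above 0, up to 6.46. Mrc1, the mannose receptor of border macrophages, stood at 5.21 and 1.79 against 3.70 and 4.85, with overlapping slices. Both 7 dpi slices were higher for 6 of the 7 genes, as for 25.2% of all genes tested. With either 7 dpi slice left out, 2 genes of the list were called.

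Many genes of the lysosome were higher at 7 than at 21 dpi. Of 24 genes, 16 rose, none fell, the other 8 had log2 fold changes above 0 without passing, and the list median was 1.41. All 24 had both 7 dpi slices above both 21 dpi slices, a pattern seen in 25.2% of all genes. Without 7 dpi slices 1 and 2 in turn 4 and 6 were called, and without 21 dpi slices 1 and 2, 15 and 12. Ctsd, the aspartic protease cathepsin D, stood at 4255 and 4486 at 7 dpi and 1061 and 566 at 21 dpi (log2 fold change 2.43 ± 0.31, adjusted p = 0.0165, edgeR). Among the cysteine cathepsins, Ctsb stood at 1667 and 2187 against 831 and 802 and Ctsz at 330.0 and 410.1 against 93.1 and 67.2. Ctsb rose by 1.25 ± 0.20 and Ctsz by 2.20 ± 0.21 (log2, adjusted p = 0.0278 and 0.0105, edgeR). Cd68, a lysosomal membrane protein used to stain phagocytes, stood at 104 and 170.3 against 21.5 and 18.8 (log2 fold change 2.76, adjusted p = 0.0108, edgeR). Grn, encoding progranulin, which is cut in lysosomes into granulins, stood at 346 and 425 against 81.6 and 67.8 (2.37 ± 0.18, adjusted p = 0.00906, edgeR). Some lysosomal genes did not pass: the activator protein gene Psap stood at 1358 and 1473 against 1332 and 1291, and the membrane protein gene Lamp1 at 499 and 497 against 381 and 336 (adjusted p = 0.770 and 0.168, edgeR).

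The CLEAR element, the sequence to which the lysosomal regulator TFEB is known to bind, has the palindromic core TCACGTGA. This core was found in the 250 bases before the RefSeq start of 3 of the 20 lysosomal genes with a promoter sequence (15%), and of 2 of the 13 risen ones (15.4%), Ctsd and Ctsa. It was found for 245 of all 27025 genes with a promoter (0.907%). For Ctsd the window lies largely inside the gene in the GENCODE annotation, which starts the gene further upstream.

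Some genes that store and export lipid were higher at 7 than at 21 dpi. Of 13 such genes, 3 rose, none fell and the other 10 had log2 fold changes above 0, with a list median of 0.64. With the 7 dpi slices and then the 21 dpi slices left out in turn, 2, 1, 4 and 3 genes were called. Plin2, which coats lipid droplets, stood at 97.2 and 175 at 7 dpi and 10.2 and 8.78 at 21 dpi (log2 fold change 3.82 ± 0.34, adjusted p = 0.00906, edgeR). Cd36, a fatty acid and lipoprotein receptor, stood at 10.4 and 29.5 against 1.58 and 0.606, and Abca1, which exports cholesterol to lipoproteins, at 115 and 128 against 54.9 and 39.4 (log2 fold changes 3.95 and 1.35, adjusted p = 0.0367 and 0.0196, edgeR). Ch25h, whose product is 25-hydroxycholesterol, stood at 20.5 and 28.9 against 2.77 and 2.12 (3.27 ± 0.31, adjusted p = 0.0105, edgeR). None of the 20 genes of cholesterol synthesis passed in either direction, and their median was -0.19. Of 13 genes of iron and haem handling, 2 rose: Hmox1, the enzyme that breaks down haem, at 34.8 and 84.8 against 4.49 and 4.24, and Ftl1, the ferritin light chain, at 1262 and 2137 against 579 and 473 (log2 fold changes 3.75 and 1.70, adjusted p = 0.0165 and 0.0330, edgeR). In the same order of slices left out, 2, 1, 2 and 1 of the iron genes were called higher at 7 dpi. Without 21 dpi slice 1, 4 iron genes were called higher at 21 dpi, as were 74 of all 13773 genes tested there. Red blood cell markers summed to 342 and 454 at 7 dpi and to 317 and 1313 at 21 dpi, so the 21 dpi slices lay on both sides of the 7 dpi slices. Their relation to Hmox1 and Ftl1 was not tested.

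Of 18 complement genes 7 rose, which were the 3 chains of C1q, which starts the classical cascade, and 4 genes of receptors. Of the 11 that did not pass, 6 had log2 fold changes above 0. The genes called higher at 7 dpi numbered 0 without 7 dpi slice 1, 2 without slice 2, and 8 and 7 without 21 dpi slices 1 and 2. C1qa stood at 727 and 831 against 255 and 142, and C1qb and C1qc rose by similar log2 fold changes of 1.79 and 1.96, beside 1.97 ± 0.28 for C1qa (adjusted p = 0.0165, 0.0163 and 0.0197, edgeR). The anaphylatoxin receptors C3ar1 (49.8 and 64.8 against 10.6 and 5.45) and C5ar1 (11.1 and 15.6 against 1.06 and 0.606) rose by 2.74 and 3.85, and the integrin chains of complement receptor 3, Itgam and Itgb2, by 2.15 and 1.96 (log2, adjusted p = 0.0123, 0.0123, 0.0179 and 0.0165, edgeR). C3, the component whose fragment C3ar1 binds, stood at 14.2 and 12.8 at 7 dpi and at 54.3 and 7.27 at 21 dpi, so the 21 dpi slices lay on both sides of the 7 dpi slices (adjusted p = 0.448, edgeR). Of 11 chemokines that attract monocytes and other leukocytes, only Ccl3 passed, at 13.1 and 19.2 against 2.24 and 0.908 (log2 fold change 3.17 ± 0.43, adjusted p = 0.0181, edgeR), and Ccl2 stood at 9.57 and 4.10 against 2.51 and 1.51 (adjusted p = 0.178).

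Many interferon-stimulated genes were higher at 7 than at 21 dpi. Of 29 tested, 16 rose, none fell, and all 29 had both 7 dpi slices above both 21 dpi slices, as did 25.2% of all genes, with a list median of 1.76. Without 7 dpi slice 1, 1 gene was called (median 1.24), against 13, 9 and 13 without 7 dpi slice 2 and 21 dpi slices 1 and 2, and none was called beyond 5 steps from fibrotic spots. Ifi27l2a (chromosome 12, 103442167 to 103443680), a small interferon-induced membrane protein, stood at 244 and 94.0 at 7 dpi and 22.4 and 11.2 at 21 dpi (log2 fold change 3.26 ± 0.50, adjusted p = 0.0247, edgeR). Isg15 (chromosome 4, 156199424 to 156200818), a ubiquitin-like modifier, stood at 51.8 and 32.5 against 5.41 and 7.57 (2.77 ± 0.30, adjusted p = 0.0123, edgeR), and Bst2, the tetherin that holds enveloped viruses on the cell surface, at 104 and 87.1 against 21.0 and 14.8 (2.39 ± 0.20, adjusted p = 0.00906, edgeR). In all 3 genes slice 1 was the higher of the 7 dpi slices, the opposite of Spp1, Gpnmb and Mmp12. Irf7, the transcription factor that amplifies interferon production, stood at 44.9 and 17.4 against 5.15 and 3.94 and Usp18, which removes ISG15 from proteins, at 15.6 and 12.3 against 3.04 and 3.63 (log2 fold changes 2.76 and 2.10, adjusted p = 0.0366 and 0.0200, edgeR). Ifit3 and Ifit3b, near-identical neighbours whose reads may be shared, did not pass (adjusted p = 0.0608 and 0.108).

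The interferon-stimulated response element is a pair of GAAA repeats, and GAAA, any 2 bases and a second GAAA were searched on both strands in the 250 bases before each gene. They were found for 7 of the 12 risen genes with a promoter sequence (58.3%), 13 of the 21 of the whole list (61.9%) and 936 of all 27025 genes (3.46%). Overlapping matches were counted where repeats followed each other. The promoters of Isg15 (chr4:156200819-156201068) and Bst2 (chr8:71537473-71537722), both on the minus strand of GRCm38.p6 in RefSeq, are shown because these risen genes carry runs of the repeat at different distances, starting 78 and 130 bases before the gene, with the matched bases in capitals.
Isg15: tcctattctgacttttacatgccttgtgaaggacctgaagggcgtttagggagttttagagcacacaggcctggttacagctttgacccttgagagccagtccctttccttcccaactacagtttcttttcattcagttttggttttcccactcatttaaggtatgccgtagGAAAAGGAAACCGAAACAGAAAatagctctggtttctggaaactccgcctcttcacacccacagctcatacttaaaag
Bst2: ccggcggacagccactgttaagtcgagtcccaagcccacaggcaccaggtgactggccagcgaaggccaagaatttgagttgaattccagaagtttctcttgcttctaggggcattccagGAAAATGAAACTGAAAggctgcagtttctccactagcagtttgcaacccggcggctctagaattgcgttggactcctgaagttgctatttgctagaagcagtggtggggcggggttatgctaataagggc

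Some antigen presentation genes were higher at 7 than at 21 dpi. Of 13 genes of the MHC class I pathway, which shows peptides from inside the cell, 5 rose and none fell, with a list median of 1.25. B2m, the shared light chain of class I molecules, stood at 914 and 659 at 7 dpi and 340.1 and 282 at 21 dpi, and Psmb8, a subunit of the immunoproteasome, at 49.1 and 42.8 and 13.2 and 10.9 (log2 fold changes 1.34 ± 0.20 and 1.91 ± 0.18, adjusted p = 0.0226 and 0.0105, edgeR). The heavy chains H2-K1 and H2-D1 rose by 1.84 and 0.99 (log2, adjusted p = 0.0182 and 0.0278, edgeR), and reads of such related genes may be shared. None of the 6 genes tested of MHC class II, which shows peptides taken up from outside, passed. Its invariant chain Cd74 stood at 6.19 and 8.20 at 7 dpi and 18.9 and 9.69 at 21 dpi, and the chain H2-Aa at 5.35 and 3.84 and 13.5 and 7.57, with the 21 dpi slices higher in both genes (adjusted p = 0.234 and 0.186, edgeR). For H2-Ab1, with 77 and 40 UMIs at 7 dpi and 87 and 30 at 21 dpi, the slices overlapped in CPM. The peptide-loading genes H2-DMa (25.2 and 23.3 against 17.2 and 17.3) and H2-DMb1 (8.87 and 10.8 against 3.43 and 2.42) had both 7 dpi slices higher (adjusted p = 0.233 and 0.0687, edgeR). Of the 6 genes, 3 had both 21 dpi slices higher and 2 had both 7 dpi slices higher. Over all genes tested 25.2% had both 7 dpi slices higher, and the share for the other direction is not reported here. No direction of the list is read from these counts. Within 5 steps of fibrotic spots 2 class II genes were higher at 7 dpi, as were 1419 of all 11803 genes tested there. The difference between the classes was not tested. With each slice left out in turn (7 dpi slices 1 and 2, then 21 dpi slices 1 and 2), 0, 3, 5 and 2 class I genes were called.

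Astrocyte genes rose in part. Of 20 genes of reactive astrocytes 4 rose, with a list median of 0.97: the filament genes Gfap (720.1 and 719 against 287 and 167) and Vim (445 and 434 against 163 and 100.2), the hyaluronan receptor Cd44 (34.5 and 38.9 against 11.9 and 6.66) and the protease inhibitor Timp1 (22.1 and 18.4 against 8.05 and 5.15). Of the 16 that did not pass, 11 had log2 fold changes above 0 and 5 below it, down to -1.44 for Steap4, a metalloreductase (2.11 and 2.05 against 8.71 and 1.82). Vim, Cd44 and Timp1 are known from macrophages and fibroblasts as well. None of the 20 was called without 7 dpi slice 1 or without 7 dpi slice 2. Gfap, known from astrocytes, rose by 1.66 ± 0.25 (log2, adjusted p = 0.0247, edgeR). Serpina3n, a protease inhibitor of reactive astrocytes, stood at 172 and 209 against 67.1 and 22.7 and did not pass (adjusted p = 0.0710, edgeR). None of the 20 homeostatic astrocyte genes passed, with a median of 0.31, and the water channel gene Aqp4, at 332 and 178 against 106 and 80.6, came nearest (log2 fold change 1.44 ± 0.29, adjusted p = 0.0658, edgeR).

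Among 16 genes of oligodendrocyte precursors and newly formed oligodendrocytes, 2 rose. Cspg4, the NG2 proteoglycan of precursors and pericytes, stood at 31.0 and 34.8 against 13.3 and 10.3, and Enpp6, a phosphodiesterase of cells that are just starting to make myelin, at 45.9 and 63.5 against 22.8 and 13.3 (log2 fold changes 1.45 and 1.54, adjusted p = 0.0202 and 0.0473, edgeR). The other 14 had log2 fold changes above 0, and the list median was 0.73. None of the 16 was called without 7 dpi slice 1 or 2. None of the 22 myelin genes passed, with log2 fold changes between -0.42 and 0.69. Cell cycle genes gave the highest list median, 2.49, and 9 of 18 rose, beside 0 calls without 7 dpi slice 1 and 2 without slice 2. Top2a, a topoisomerase of dividing cells, stood at 17.0 and 26.1 against 3.17 and 1.21, and the proliferation marker Mki67 at 14.9 and 20.5 against 0.924 and 3.33 (log2 fold changes 3.11 ± 0.42 and 3.29 ± 0.52, adjusted p = 0.0181 and 0.0284, edgeR). Which cells divided is not given by spots that hold several.

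Of 16 genes of TGF-beta signalling, 4 rose, among them the ligand Tgfb1 (13.7 and 16.9 against 4.23 and 2.12) and the receptors Tgfbr1 (66.7 and 57.4 against 28.9 and 27.3) and Tgfbr2 (39.0 and 44.3 against 21.4 and 22.7). The log2 fold changes of these 3 were 2.15, 1.15 and 0.92 (adjusted p = 0.0339, 0.0165 and 0.0463, edgeR). The other ligands Tgfb2 and Tgfb3, the intracellular mediator Smad3 and its inhibitor Smad7 did not pass, and the list median was 0.18. Leaving out 7 dpi slices 1 and 2 and then 21 dpi slices 1 and 2 gave 0, 1, 2 and 1 calls. Matrix genes were partly set by the choice of spots without Col1a1. Of 19 of them Sparc, a collagen-binding protein also made by glia, rose (510.4 and 359 against 204 and 139.9, adjusted p = 0.0413, edgeR), and Ptgds was higher at 21 dpi.

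**Figure D3:**
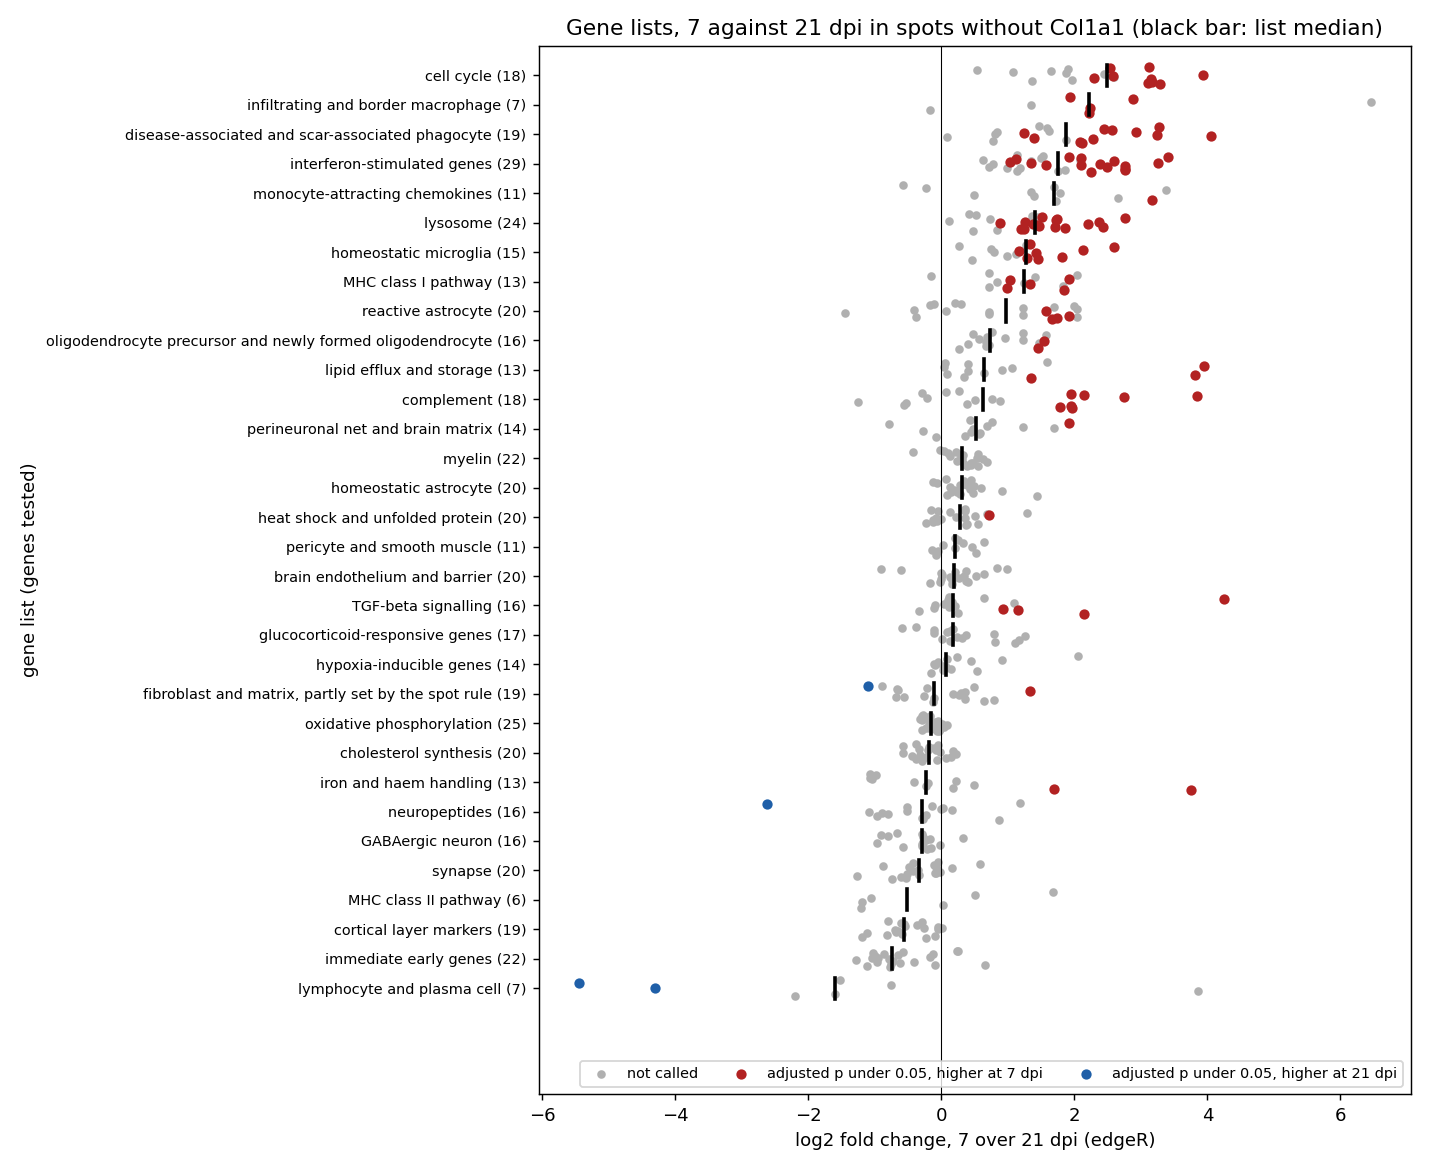
The log2 fold change of 7 over 21 dpi (x axis) for each gene tested in 32 gene lists (rows, with the number of genes tested), with genes called higher at 7 dpi in red, at 21 dpi in blue and others in grey, and the list median as a black bar. Cell cycle, macrophage, phagocyte, interferon and lysosome lists lie to the right, and neuronal lists lie at or left of 0 with a single call.

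Neuronal genes were tested singly, and their lists were not tested as groups. None of 20 synapse genes, 16 GABAergic neuron genes, 19 cortical layer markers or 22 immediate early genes passed, and the medians were -0.34, -0.29, -0.56 and -0.74. Snap25, of the vesicle fusion machinery, stood at 1623 and 2584 at 7 dpi and 3132 and 3963 at 21 dpi (adjusted p = 0.251, edgeR), and Nrgn, a calmodulin-binding protein of cortical dendrites, at 1129 and 1119 and 1719 and 2434 (adjusted p = 0.103, edgeR). The 21 dpi slices were higher for both genes, and slice 2 was the highest. None of 25 genes of oxidative phosphorylation passed, with log2 fold changes from -0.32 to 0.08, the narrowest range of any list. None of 14 hypoxia-inducible genes, 17 glucocorticoid-responsive genes, 20 genes of brain endothelium and barrier, or 11 pericyte and smooth muscle genes passed (medians 0.08, 0.18, 0.19 and 0.20). The medians of these 4 lists and of immediate early, myelin, homeostatic astrocyte and cholesterol synthesis genes changed sign in at least 1 alternative, so no direction is given for them. In the list of 14 perineuronal net and brain matrix genes Cd44 alone rose, and of 20 heat shock and unfolded protein genes Pdia3 alone, a disulfide isomerase that also loads MHC class I, at 189.6 and 185 against 119 and 109 (adjusted p = 0.0486, edgeR).

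Of the 13 genes higher at 21 dpi, 5 lie on the Y chromosome (Ddx3y, Eif2s3y, Kdm5d, Uty and Gm29650). The other 8 were Igha, Igkc, Ptgds, Cartpt, Scn4b, Arpp21, Lrrk2 and Coch. Igha (chromosome 12, 113254830 to 113260236), the heavy chain of immunoglobulin A, had 5 and 0 UMIs in the 7 dpi slices and 200 and 44 in the 21 dpi slices, or 0.704 and 0 against 26.4 and 13.3 CPM. Igkc (chromosome 6, 70726435 to 70726966), the kappa light chain, had 6 and 3 UMIs against 153 and 40, or 0.844 and 0.768 against 20.2 and 12.1 CPM (log2 fold change -4.30 ± 0.43, adjusted p = 0.0108, edgeR; for Igha adjusted p = 0.0154). Both are products of plasma cells, and both were also seen in the deleter slices, at 65.1 and 48.0 for Igha and 71.8 and 40.3 for Igkc. Of the 23 lymphocyte and plasma cell genes only 7 had enough UMIs to be tested. Beside Igha and Igkc, 5 of these did not pass, and 1 of the 5 went the other way, with a log2 fold change of 3.86. Jchain, which joins immunoglobulin A molecules, stood at 0.985 and 1.28 at 7 dpi and 4.23 and 1.82 at 21 dpi and did not pass (adjusted p = 0.282, edgeR). The T cell receptor gene Trbc2 stood at 9.57 and 25.4 at 7 dpi and 38.3 and 65.1 at 21 dpi, with both 21 dpi slices higher, and did not pass (log2 fold change -1.60 ± 0.46, adjusted p = 0.161, edgeR), while Cd3e and Cd8a were below the limit for testing. Without 7 dpi slice 1 neither antibody gene passed.

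Ptgds, the enzyme that makes prostaglandin D2 and a product of meningeal cells and oligodendrocytes, stood at 703 and 731 at 7 dpi and 1614 and 1487 at 21 dpi (log2 fold change -1.11 ± 0.16, adjusted p = 0.0196, edgeR). Of the neuropeptides, Cartpt alone passed, at 7.04 and 4.10 against 21.4 and 52.1 (log2 fold change -2.61 ± 0.48, adjusted p = 0.0463, edgeR). Scn4b, a sodium channel subunit, stood at 28.6 and 33.8 against 80.4 and 81.2, Arpp21, a phosphoprotein of striatal and cortical neurons, at 179.9 and 176 against 309.9 and 384, Lrrk2, a kinase gene linked to Parkinson's disease, at 15.1 and 14.1 against 32.1 and 42.1 and Coch, first known from the inner ear, at 22.7 and 19.7 against 49.3 and 49.97. Their log2 fold changes were -1.38, -0.96, -1.32 and -1.21 (adjusted p = 0.0126, 0.0317, 0.0255 and 0.0165, edgeR). Scn4b and Arpp21 are known to be high in striatum, and the sums of striatal markers given above were also higher at 21 dpi: among them Ppp1r1b, the phosphoprotein DARPP-32, stood at 82.6 and 43.8 at 7 dpi and 182 and 123 at 21 dpi and did not pass (adjusted p = 0.109, edgeR). The share of striatum in these differences was not tested.

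**Figure D4:**
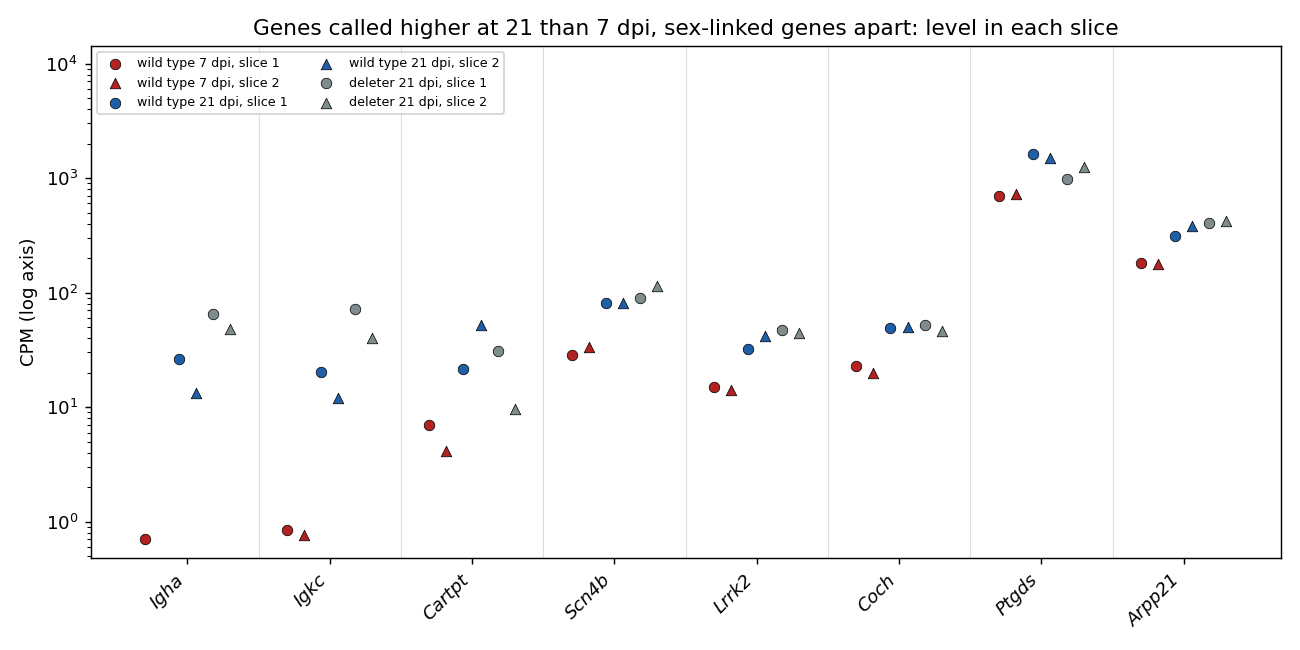
Level of the 8 genes higher at 21 dpi that are not on the Y chromosome, in CPM on a log axis, with 1 point per slice in the colours of the plot of genes higher at 7 dpi. Igha had no UMI in 7 dpi slice 2 and so has no point there, and the deleter slices (grey) lie above both 7 dpi slices in every gene shown.

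At 7 dpi, levels of phagocyte genes were highest near fibrotic tissue. Kept spots at 1 to 2, 3 to 5, 6 to 9 and at least 10 steps from the nearest fibrotic spot were taken apart, and each bin held 24 to 243 spots of a slice. The summed level of the lysosome list over these bins was 30784, 20461, 8210.0 and 7705 in 7 dpi slice 1 and 20815, 26584, 6241 and 4956 in slice 2, against 6350.1, 5422, 5155 and 5115 and 7034, 4293, 4115 and 3919.6 in the 21 dpi slices. At 7 dpi the step between 3 to 5 and 6 to 9 was the steepest in both slices, and at 10 steps or more slice 2 was below 21 dpi slice 1. Spp1 gave 5670.3, 2007, 464 and 251 in 7 dpi slice 1 and 3202, 3151, 169.5 and 47.0 in slice 2, against 185, 119, 48.0 and 51.0 and 293, 54.0, 41.1 and 25.8 at 21 dpi. Its UMIs were concentrated in few spots, since the 41 and 23 highest of the kept spots held 66.0% and 67.0% of them at 7 dpi, and the 61 and 28 highest held 66.6% and 62.0% at 21 dpi. In the fibrotic spots themselves Spp1 stood at 14015 and 13999.9 in the 7 dpi slices, against 2799.95 and 2924 in the 21 dpi slices. Summed over its list of disease-associated microglia and scar-associated macrophages, levels there were 40789 and 42188 against 46078 and 48639.5. Apoe made up a large part, at 13481 and 13855 against 26001 and 30216. Complement genes summed to 7537 and 7724 against 9470 and 9321, and lysosome genes to 37171 and 32185 against 29491 and 27381. Differences in fibrotic spots were not tested.

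Interferon-stimulated genes followed another course in slice 1. Their sum over the same bins was 2612, 1869, 1013 and 1565 in 7 dpi slice 1 and 1593, 1444, 673 and 542 in slice 2, against 476, 384, 456 and 422 and 756, 376, 335 and 244 at 21 dpi. In slice 1 the most distant spots were higher than those at 6 to 9 steps, and MHC class I genes did the same, at 4026, 2218, 1152 and 1609. In the spots beyond 5 steps the log2 fold changes of Ifi27l2a, Isg15 and Irf7 were 2.81, 2.37 and 2.48, beside 3.26, 2.77 and 2.76 in all kept spots, while those of Gpnmb, Ctsb and Plin2 were 1.22, 0.40 and 1.97 beside 3.24, 1.25 and 3.82. The list medians beyond 5 steps were 1.42 for interferon-stimulated genes and 0.60 for the lysosome. None of these genes passed beyond 5 steps (adjusted p = 0.811 for each of the 6 genes, edgeR), and the difference between the lists was not tested. Reactive astrocyte genes peaked at 3 to 5 steps in both 7 dpi slices, at 2615, 3558, 1424 and 979.7 and 1929, 3394, 1266 and 807, where Gfap alone gave 807, 1443, 649.9 and 372 and 479, 1359.9, 594 and 329.9. Ptgds ran the other way at 7 dpi, with 179.9, 293, 564 and 1117 and 441, 470.1, 703 and 1123 with growing distance from fibrotic spots. At 21 dpi Ptgds gave 2040.4, 1432, 1719.6 and 1512 and 4144, 1518, 1326 and 1083. Its log2 fold change was -2.24 within 5 steps (adjusted p = 8.41e-05, edgeR) and -0.70 beyond them (adjusted p = 0.811). At 21 dpi, Igha gave 24.0, 17.1, 30.9 and 29.8 in slice 1 and 17.8, 23.5, 11.4 and 6.46 in slice 2, and Igkc 38.8, 16.6, 22.9 and 14.1 and 48.9, 12.9, 9.63 and 6.46. In the fibrotic spots at 21 dpi both were higher, at 544 and 948 for Igha and 722 and 997 for Igkc.

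**Figure D5:**
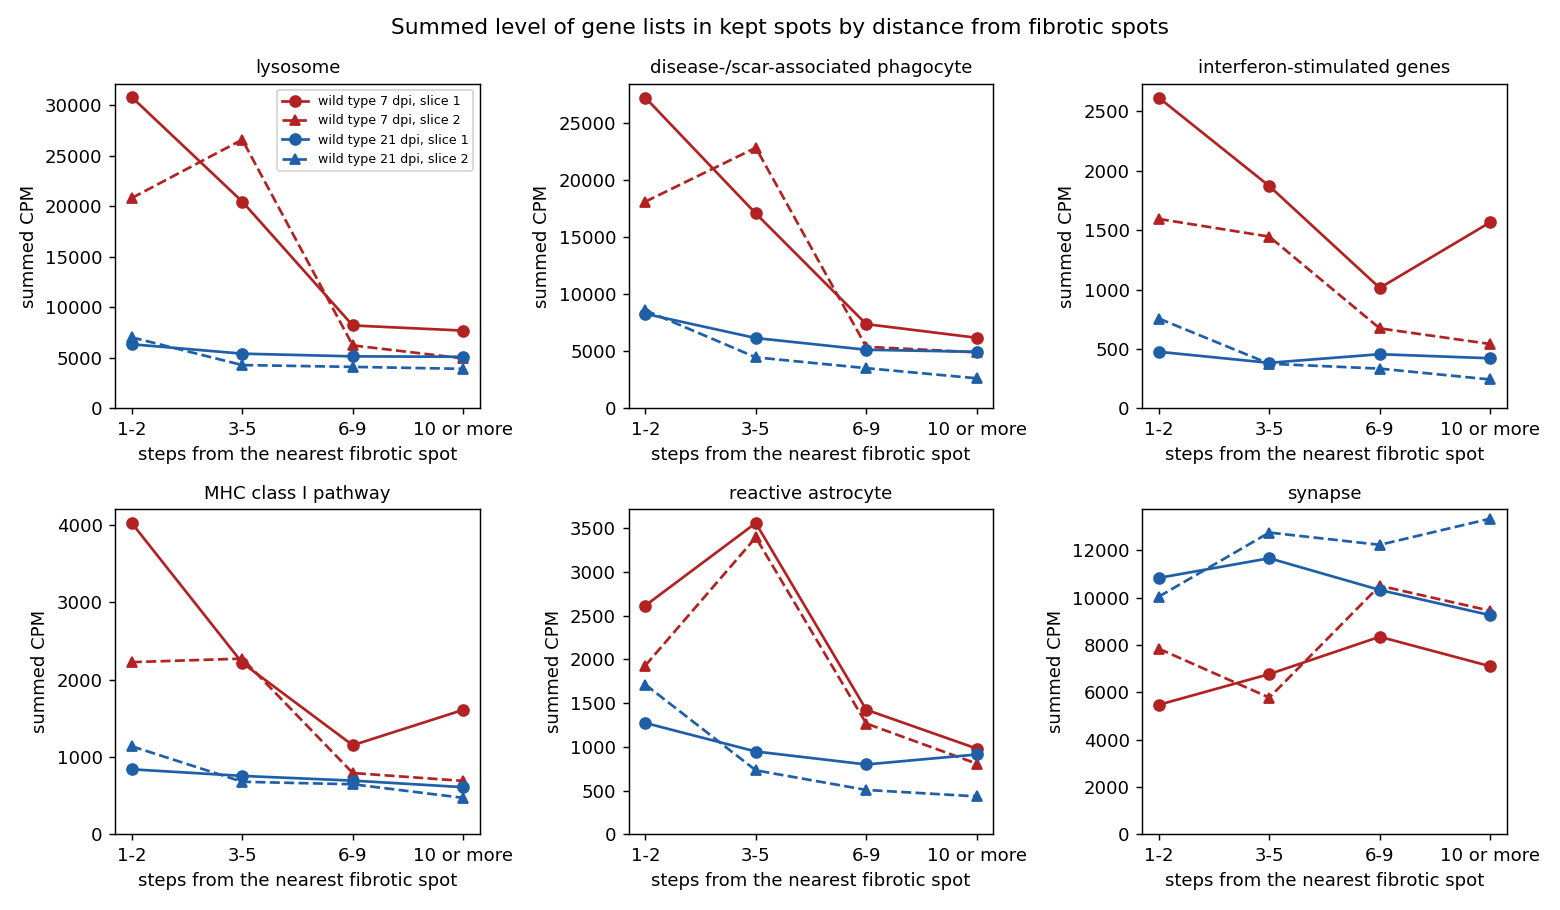
Summed level (CPM, axes from 0) of 6 gene lists in kept spots at 1 to 2, 3 to 5, 6 to 9 and at least 10 steps from the nearest fibrotic spot, with a line per WT slice: red for 7 dpi, blue for 21 dpi, solid for slice 1 and dashed for slice 2. Lysosome and phagocyte lists at 7 dpi drop towards the 21 dpi lines beyond 5 steps, and the interferon list of 7 dpi slice 1 stays above 1000.

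The deleter slices at 21 dpi gave a view of the time difference on another capture area. No gene of 13679 differed between deleter and WT slices at 21 dpi in edgeR at an adjusted p under 0.05, 488 had an unadjusted p under 0.05, and DESeq2 called 7. With the deleter slices in place of the WT slices at 21 dpi, 507 genes were higher at 7 dpi (3.65% of those tested) and 93 at 21 dpi (0.67%), with the same 7 dpi slices in both comparisons. Spp1 stood at 68.7 and 25.4 in the deleter slices, Ctsd at 758 and 676, Isg15 at 3.62 and 7.11 and B2m at 314 and 235, and their log2 fold changes were 4.51, 2.51, 2.79 and 1.41 (adjusted p = 0.00485, 0.00259, 0.00630 and 0.0188, edgeR). These genes had passed the main test on the same 7 dpi slices, so their result here was partly fixed in advance. Ptgds, at 983 and 1254, and Cartpt, at 30.6 and 9.62, did not pass against the deleter slices (adjusted p = 0.0715 and 0.148, edgeR).

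Deleter slice 1 carried Xist (67.3 and 0.837 in the deleter slices) and no UMI of Ddx3y, as the 7 dpi slices did, so a comparison within that sex was possible for 1 slice. Against it alone, 269 genes were higher at 7 dpi and 71 at 21 dpi, where the lone slice is assumed to vary as the 7 dpi slices do. Spp1 differed there by a log2 fold change of 3.89, Gpnmb by 3.49, Ctsd by 2.39, Isg15 by 3.41 and Igkc by -6.55. Ptgds did not pass there (log2 fold change -0.59). All of these genes had passed the main test, which used the same 7 dpi slices, so their direction here was partly fixed in advance. The 8 genes higher at 21 dpi outside the Y chromosome kept their direction in every alternative in which they could be fitted. The alternatives reuse slices on which these 8 genes were chosen, so this was partly fixed in advance. Genotype and capture area also differ in this comparison and cannot be told apart from time.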

How the data were processed

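Visium arrays of 4 capture areas were analysed. The authors deposited unnormalized UMI counts for the spots under tissue, made with Space Ranger 2.0.0 on mm10, and array positions per spot (other values, in row and column numbers); genes numbered 32285. Slices were taken as the connected pieces of tissue spots, 2 per area, each from 1 mouse by the study's methods. UMIs were summed per slice over spots with at least 1000 UMIs and 0 Col1a1 UMIs. Sums of 3302209 to 7573482 UMIs mean that levels near 1 CPM rest on few UMIs.

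Counts were filtered (filterByExpr), scaled (TMM) and tested with edgeR 4.0.16 in R 4.3.3 (glmQLFit, glmQLFTest), with Benjamini-Hochberg adjustment over all genes tested and a threshold of 0.05. The standard error is the log2 fold change divided by the root of the F statistic. DESeq2 1.42.0 was an alternative, and Python 3.11.15 made the other tables. In simulated counts of the same comparison (13698 genes, 200 changed), 59.6% of log2 changes of size 1 and 99% of size 2 were recovered, and 5.95% of calls were false. The simulation gave every gene the same variability between slices and no differences of region, sex or capture area. These rates therefore need not hold for the real slices. The 2 slices of the 7 dpi area did not agree within sampling noise, nor did those of the 21 dpi and deleter areas. Other pairs of slices were not checked for this. The kept spots of the 7 and 21 dpi areas shared 217 array barcodes, which recur on every array.

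Spots, gene lists and markers were chosen with earlier results of these data known. Genes were named by a rule: in each direction the 12 largest log2 fold changes among genes past the threshold with no overlap of slices and at least 100 UMIs in each slice of the higher time, and in each list the 4 most abundant members and up to 4 called members of smallest adjusted p. Other list members were named after their values were seen, and some genes that the rule names are not reported here. Gene positions are those of GRCm38 (173 of 173 identifiers matched), and promoters are from RefSeq. The deposited image files were not used. The alternatives were other size factors, no filter, each slice left out, other limits on spots, distance from fibrotic spots, thinned spots and the deleter slices. Of these, spots within 5 steps of fibrotic ones and the deleter slice with Xist, were added after the data had been seen.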

Additional observations from a re-analysis of the deposited data

How the results depend on the processing

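The 313 genes higher at 7 dpi became 1020 with no filter on low counts, 1419 within 5 steps of fibrotic spots, 937 with the deleter slices added and 507 with them in place of the WT slices. They became 167 in spots with less than 1 Col1a1 UMI per 10000, 152 in spots of myelin share below the median, 112 in spots thinned to 1000 UMIs, 2 in all spots whatever their Col1a1, 2 in spots with Slc17a7 and 1 beyond 5 steps. Leaving out a slice gave 44 (without 7 dpi slice 1) to 308, with 114 without 7 dpi slice 2 and 205 without 21 dpi slice 2. The 13 genes higher at 21 dpi became 57 with DESeq2, 527 with no filter, 702 within 5 steps, 93 and 185 with the deleter slices in place or added, 71 against the deleter slice with Xist, 8 at low myelin share, 4 in all spots, and 2 both beyond 5 steps and with Slc17a7. Leaving out a slice gave 2 (without 7 dpi slice 1) to 74 (without 21 dpi slice 1), with 25 without 7 dpi slice 2. The cause of these changes was not tested. No gene differed between deleter and WT slices, beside 7 with DESeq2, 123 with no filter, 6 within 5 steps, and 0 to 3 leaving out a slice (3 without deleter slice 2, 1 without 21 dpi slice 2). None of the 73 named genes past the threshold changed sign in any alternative, and 53 of the 94 named genes not past it did. The genes past the threshold were chosen on slices that the alternatives reuse, so their constant sign was partly fixed in advance. Of the 32 list medians 14 changed sign in at least 1 alternative, among them complement (-0.28 in all spots), chemokines (-0.46 with thinned spots), MHC class II (0.18 within 5 steps), immediate early genes (0.06 against the deleter slice with Xist) and iron handling (0.27 with the deleter slices in place). The medians of the microglia, phagocyte, lysosome, interferon, MHC class I, reactive astrocyte and cell cycle lists did not. The MHC class II median could not be had with thinned spots. No paired analysis was possible because the slices carry no replicate numbers that join the times. The number of slices per time limits the precision, and 16 of 23 lymphocyte and 8 of 15 macrophage genes had too few UMIs to be tested.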
